A study of Mus musculus with 12 samples.

Results

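The transcripts described here are those of the Fas and TRAIL death receptor pathway. They were chosen by name, with earlier results of these data known. They are the ligands Fasl (Fas ligand) and Tnfsf10 (TRAIL) and the receptors Fas and Tnfrsf10b (the mouse TRAIL receptor). Fadd, Casp8 and Cflar, which make up the complex that forms on an engaged receptor, complete the list. All 7 were found among the 25078 rows of the deposited count table, and all 7 passed the filter on low counts in both T cell subsets. Fas and the TRAIL receptor carry a death domain in their cytoplasmic tail. When a ligand trimer binds, the adaptor FADD is recruited and brings in procaspase-8, which is activated by dimerization, while c-FLIP, the product of Cflar, takes the place of caspase-8 in the complex and restrains it. In T cells, Fas ligand serves both the killing of target cells and the contraction of activated T cells after a response, and TRAIL is a second death ligand that activated T cells can carry.

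RNA was sequenced from donor T cells recovered from the liver on day 6 after allogeneic hematopoietic cell transplantation, in which C57BL/6 T cells attack the tissues of lethally irradiated BALB/c recipients that also received T cell-depleted wild-type C57BL/6 bone marrow. The donor T cells were wild type (WT), lacked STAT3 (STAT3ko, a floxed Stat3 allele deleted by Cre under the CD4 promoter, and so within the T lineage), or lacked STAT3 and, by germline deletion, PD-1 (STAT3ko PD-1ko). CD4+ and CD8+ donor cells were sorted apart, which gave 6 groups of 2 libraries each, and each library held cells pooled from several recipients. All groups therefore share the transplant and the irradiated BALB/c host, and there were no PD-1ko donors with intact STAT3. T cell receptor libraries of such sorted cells were made in a pair of batches, each from its own pool of mice. The titles of the RNA libraries carry facility numbers in 2 runs, 1 for all 6 libraries numbered 1 and 1 for all 6 numbered 2. The replicate number was therefore read as the batch, although this is not stated for the RNA libraries, and a fit with it as a block is given beside each member whose call it changed. The 12 libraries held 21676125 to 24551477 counts (median 23442480).

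The targeted genes followed the labels. Stat3 stood at 368 and 467 CPM (counts scaled to a common library total, with TMM factors over the 12 libraries) in CD4 WT, 140 and 164 in CD4 STAT3ko, and 157 and 219 in CD4 STAT3ko PD-1ko. Its CD8 levels were 397 and 384, 149 and 135, and 154 and 235. The log2 fold change of Stat3 for STAT3ko against WT was -1.46 in both subsets, with an adjusted p by edgeR of 0.0550 in CD4 and 0.108 in CD8 cells. DESeq2 called both (adjusted p = 1.99e-07 and 3.69e-09), as did edgeR with all 12 libraries in 1 fit (0.0144 and 0.0452) and with genes of at least 1 count kept (0.00263 and 0.00108). With the replicate number as a block, the CD4 change was called by edgeR (adjusted p = 0.00197) and the CD8 change was not. Pdcd1, which encodes PD-1, ranged from 26 to 93.5 CPM in the 4 STAT3ko PD-1ko libraries and from 235 to 454 CPM in the other 8. T cell markers (10 genes, led by Thy1) summed to between 5063 and 8204 CPM in each library, and 14 hepatocyte genes to between 1.55 and 5.71 CPM. Cd4 was at 1241 CPM or more in every CD4 library and at 2.73 CPM or less in every CD8 library. Cd8a was at 589 CPM or more in CD8 and at 5.64 CPM or less in CD4 libraries. Cd8b1 was at 554 CPM or more in CD8 libraries and at 9.42 to 19.4 CPM in CD4 libraries. Zbtb7b, also listed as a marker of the sort, ranged from 76.5 to 258 CPM in CD4 and from 38.8 to 90.3 CPM in CD8 libraries. These ranges overlapped, although within each genotype the CD4 libraries lay above the CD8 libraries.

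Fasl, Tnfsf10 and Fas were the members with the lowest levels in the STAT3ko PD-1ko libraries relative to WT, so the 250 bases before their start sites are shown (RefSeq, GRCm38.p6, written 5′ to 3′ on the strand of the gene). They lie at chr1:161788496-161788745 on the minus strand for Fasl, chr3:27316827-27317076 on the plus strand for Tnfsf10, and chr19:34290409-34290658 on the plus strand for Fas. Capitals mark matches, on either strand, to STAT (TTCNNNGAA), NFAT (GGAAA), ISRE (GAAA, any 2 bases, GAAA), FOXO (GTAAACA) or NF-kB (GGG, any 5 bases, CC) patterns.
Fasl: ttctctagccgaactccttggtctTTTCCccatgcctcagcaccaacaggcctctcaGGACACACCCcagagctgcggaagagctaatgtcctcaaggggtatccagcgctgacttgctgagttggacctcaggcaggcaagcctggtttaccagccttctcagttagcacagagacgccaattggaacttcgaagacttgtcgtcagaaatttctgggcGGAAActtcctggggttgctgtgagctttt
Tnfsf10: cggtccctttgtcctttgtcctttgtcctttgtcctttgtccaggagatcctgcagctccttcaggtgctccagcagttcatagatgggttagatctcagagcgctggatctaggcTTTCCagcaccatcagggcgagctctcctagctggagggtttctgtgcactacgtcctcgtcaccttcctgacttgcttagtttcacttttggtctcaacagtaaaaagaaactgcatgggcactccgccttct
Fas: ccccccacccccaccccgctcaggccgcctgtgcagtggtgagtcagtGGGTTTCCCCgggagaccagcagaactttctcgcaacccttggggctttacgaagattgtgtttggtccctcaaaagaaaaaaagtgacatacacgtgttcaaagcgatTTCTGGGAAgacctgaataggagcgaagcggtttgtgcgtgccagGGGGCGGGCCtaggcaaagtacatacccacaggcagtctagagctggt

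The Fas promoter held TTCTGGGAA, a match to the STAT pattern that begins 93 bases before the start, and this pattern was found in 7.02% of 32851 mouse promoters of the same length. It also held the NF-kB matches GGGTTTCCCC and GGGGCGGGCC. The first of these begins 202 bases before the start, reads as a match on both strands and overlaps the NFAT match TTTCC. The second begins 48 bases before the start. Fasl had NFAT matches that begin 226 and 30 bases before the start and an NF-kB match, GGACACACCC, at 193 bases, while Tnfsf10 had only TTTCC, 134 bases before the start. NFAT and NF-kB matches were common, in 55.6% and 45.8% of promoters, whereas ISRE (2.98%) and FOXO (3.17%) matches were found in none of the 5 members whose sequence at hand ends at the start in the count table. The Casp8 sequence, which ends at a start 7128 bases further in, held none either, and Tnfrsf10b was not searched. A match says only that these letters are present.

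The clearest pattern over the genotypes was a lower level of the TRAIL transcript and of Fas in STAT3ko PD-1ko cells than in WT cells, in both subsets. Tnfsf10 was 2.40-fold lower in CD4 and 2.44-fold lower in CD8 cells, and Fas was 2.08-fold lower in CD4 and 2.59-fold lower in CD8 cells. These were the members called in that comparison (edgeR quasi-likelihood test, Benjamini-Hochberg adjusted p under 0.05 over all genes tested), 2 of 7 in each subset. All genes were called at 12.9% in CD4 and 17.2% in CD8 cells (lower in STAT3ko PD-1ko, 5.65% and 8.21%). Loss of STAT3 alone gave no called member in either subset, where 0.334% of all genes were called in CD4 and 0.0583% in CD8 cells. At an unadjusted p under 0.05, 1 member, Tnfsf10, stood out in each subset, as did 10.5% of all genes in CD4 and 11% in CD8 cells. DESeq2 called 0 members in CD4 and 1 in CD8, again Tnfsf10, and limma on RPKM called 0 in both. Between STAT3ko PD-1ko and STAT3ko, 1 of 7 members was called in CD4 cells (Tnfsf10, lower, beside 11.1% of all genes called and 5.03% called lower) and 0 of 7 in CD8 cells (beside 16.8%). In CD8 cells 5 members had an unadjusted p under 0.05 (34.4% of all genes did), DESeq2 called 2, and limma 0. These last counts moved with the processing. In CD4 cells DESeq2 called 3 members, edgeR called 2 with all 12 libraries or with genes of at least 1 count, and limma on log2(RPKM + 0.1) called 0. In CD8 cells edgeR called 3 with genes of at least 1 count and 1 with only the 4 libraries compared. With the replicate number as a block, edgeR called 3 members against WT in each subset, and 4 in CD4 and 2 in CD8 cells against STAT3ko, with Fasl among them in all 4 comparisons. In that fit all genes called numbered 3104 in CD4 (1538 without the block) and 2965 in CD8 cells (2066) against WT, and 3105 (1324) and 2932 (2017) against STAT3ko. For STAT3ko against WT it called 0 members in either subset and 303 genes in CD4 (40 without the block) and 9 in CD8 cells (7).

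**Figure D1:**
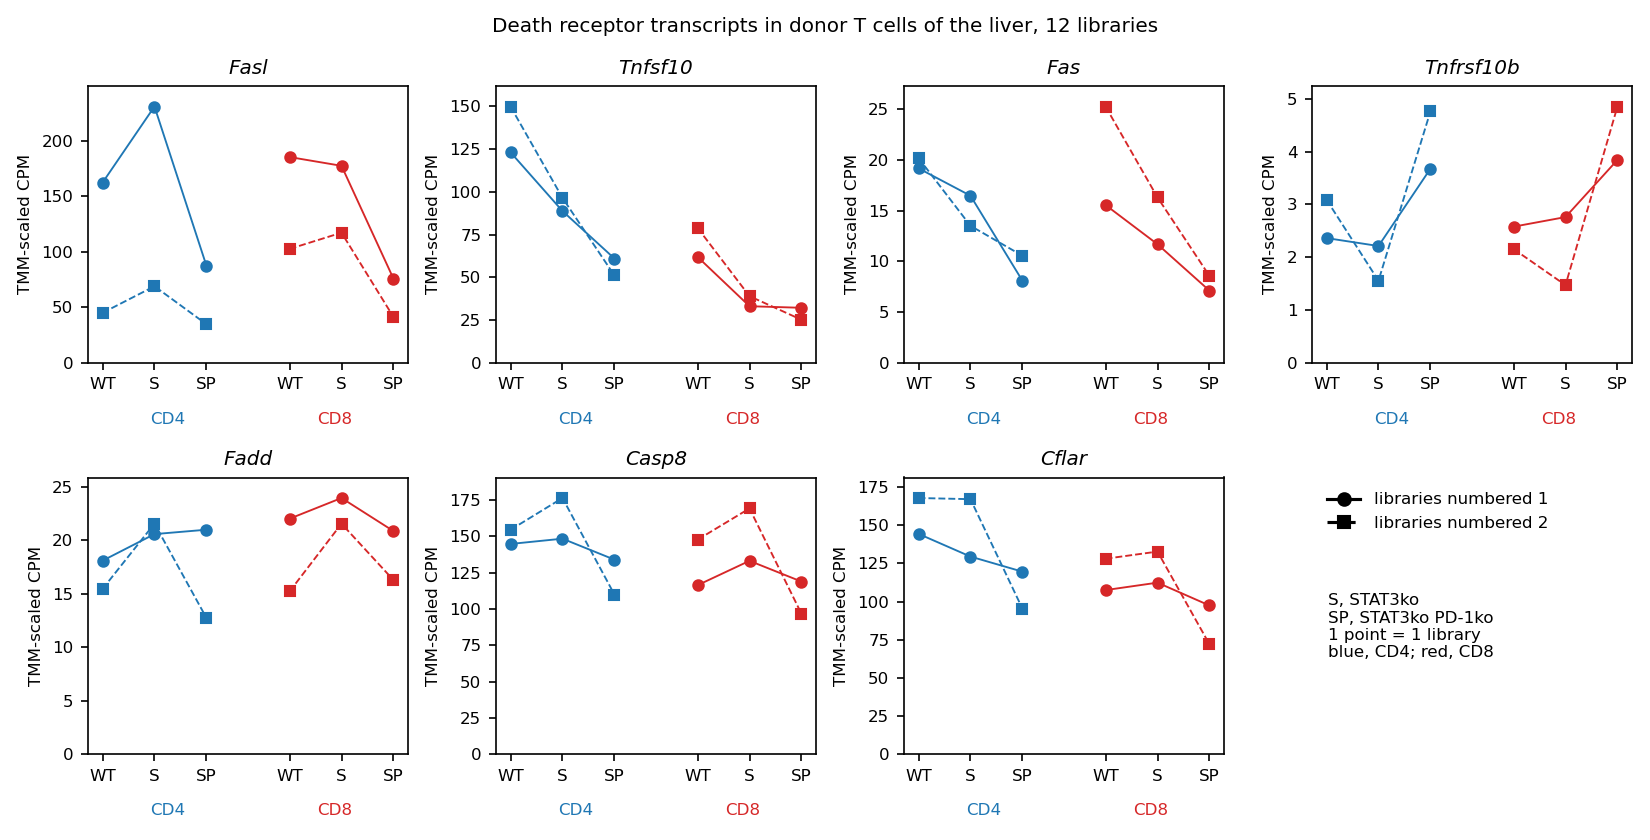
TMM-scaled CPM (vertical axis) of the 7 members in each of the 12 libraries, by genotype (WT; S, STAT3ko; SP, STAT3ko PD-1ko) and subset (blue CD4, red CD8). Lines join libraries with the same replicate number. Tnfsf10 falls from WT to SP in both subsets, Fasl lies lower in the libraries numbered 2 of all 6 groups, and Fadd, Casp8 and Cflar vary least.

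Levels between genes can be compared only per exon length, as deposited RPKM. On that scale Fasl (median over the 12 libraries, 50.2 RPKM) and Casp8 (49.0 RPKM) were the most abundant members. Cflar (14.9 RPKM), Tnfsf10 (12.7 RPKM), Fas (8.17 RPKM) and Fadd (7.31 RPKM) followed. Tnfrsf10b, at 0.854 RPKM, lay lowest. Within some groups this order turned. By group mean, Tnfsf10 lay above Cflar in CD4 WT (27.8 against 18.6 RPKM), CD4 STAT3ko (18.7 against 17.6) and CD8 WT (14.4 against 14.1). Fadd lay above Fas in STAT3ko PD-1ko, at 6.05 against 5.34 RPKM in CD4 and 6.68 against 4.50 RPKM in CD8 cells. It also did in CD8 STAT3ko (8.04 against 7.90 RPKM), where Tnfsf10 (7.41 RPKM) lay below both. In CD8 STAT3ko PD-1ko Tnfsf10 (6.00 RPKM) lay below Fadd. Casp8 lay above Fasl in STAT3ko PD-1ko, at 43.5 against 32.6 RPKM in CD4 and 38.6 against 31.4 RPKM in CD8 cells. The range over the 12 libraries was widest for Fasl, whose highest library held 6.64 times the CPM of its lowest, and for Tnfsf10 (5.95 times). It was narrowest for Casp8 (1.82 times) and Fadd (1.88 times).

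Tnfsf10 lies at chr3:27317077-27339665 (mm10, plus strand) and encodes TRAIL, a membrane ligand of the TNF family. In CD4 cells its level was 123 and 150 CPM in WT, 88.7 and 96.4 CPM in STAT3ko, and 61.0 and 51.1 CPM in STAT3ko PD-1ko. In CD8 cells it was 61.9 and 78.9 CPM in WT, 33.1 and 39.0 CPM in STAT3ko, and 32.2 and 25.2 CPM in STAT3ko PD-1ko. Within each subset the 3 genotypes did not overlap, and the 6 groups in order of their mean (CD4 WT, CD4 STAT3ko, CD8 WT, CD4 STAT3ko PD-1ko, CD8 STAT3ko, CD8 STAT3ko PD-1ko) did not overlap with their neighbours. In bulk samples such as these, fewer cells that carry a transcript and less of it per cell cannot be told apart.

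For STAT3ko PD-1ko against WT, the log2 fold change of Tnfsf10 was -1.26 (SE 0.17, adjusted p = 0.00671 by edgeR) in CD4 and -1.29 (SE 0.19, adjusted p = 0.00802 by edgeR) in CD8 cells. The CD4 call rested on both STAT3ko PD-1ko libraries: it was lost without library 1 or 2, at log2 fold changes of -1.39 and -1.15. The CD8 call was lost without STAT3ko PD-1ko library 2, at a log2 fold change of -1.13. Against STAT3ko, the log2 fold change was -0.71 (SE 0.17, adjusted p = 0.0404 by edgeR) in CD4 cells. It passed narrowly. The call was lost without STAT3ko library 2 (log2 fold change -0.64) and without STAT3ko PD-1ko library 1 or 2 (-0.83 and -0.60). By limma on RPKM the adjusted p was 0.0502 and 0.0553. In CD8 cells the same difference was -0.32 (SE 0.19, adjusted p = 0.263 by edgeR). The genotype effect in CD8 minus that in CD4 was 0.40 (SE 0.26, 95% interval -0.17 to 0.96), so the CD4 call does not show a difference between the subsets. STAT3ko against WT gave -0.56 (SE 0.17, adjusted p = 0.284 by edgeR) in CD4 and -0.97 (SE 0.18, adjusted p = 0.208 by edgeR) in CD8 cells. DESeq2 called the CD8 difference (adjusted p = 0.000726), as did edgeR with every gene of at least 1 count kept (adjusted p = 0.0286).

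Fasl, at chr1:161780692-161788495 on the minus strand, encodes the ligand of Fas. In CD4 cells its level was 162 and 45.0 CPM in WT, 231 and 69.0 CPM in STAT3ko, and 87.5 and 34.8 CPM in STAT3ko PD-1ko (libraries 1 and 2 in that order). The CD8 libraries held 186 and 103 CPM in WT, 178 and 117 CPM in STAT3ko, and 75.9 and 41.3 CPM in STAT3ko PD-1ko. Library 2 lay below library 1 in all 6 groups, by 0.60 to 1.85 on the log2 scale, with the larger gaps in the CD4 groups. In CD8 cells both STAT3ko PD-1ko libraries lay below all 4 others, whereas in CD4 cells the genotypes overlapped.

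No Fasl difference was called in the fit by group, but all 4 for STAT3ko PD-1ko were called with the replicate number as a block. In that fit the log2 fold changes were -0.61 against WT and -1.17 against STAT3ko in CD4 (adjusted p = 0.0199 and 0.00249 by edgeR) and -1.29 and -1.35 in CD8 cells (adjusted p = 0.00236 and 0.00222 by edgeR). Without the block, for STAT3ko PD-1ko in CD8 cells, the log2 fold change was -1.29 (SE 0.37, adjusted p = 0.0536 by edgeR) against WT and -1.32 (SE 0.37, adjusted p = 0.0508 by edgeR) against STAT3ko. These values sat at the threshold. They passed when only the 4 libraries compared were fitted (adjusted p = 0.0261 and 0.0239), when genes of at least 1 count were kept (0.00772 and 0.00692), and when some single libraries were left out. Against WT the latter were STAT3ko library 1 (0.0266), STAT3ko library 2 (0.0263) and WT library 2 (0.0362). Against STAT3ko they were WT library 1 (0.0214), WT library 2 (0.0263) and STAT3ko library 2 (0.0496). In CD4 cells the corresponding log2 fold changes were -0.74 (95% interval -2.43 to 0.96, adjusted p = 0.549 by edgeR) and -1.28 (95% interval -2.99 to 0.44, adjusted p = 0.290 by edgeR). Without CD4 WT library 1 the change against WT was 0.45.

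Taken between libraries with the same number, Fasl was lower in STAT3ko PD-1ko in each of the 8 differences. In CD8 cells they were -1.29 and -1.31 against WT and -1.23 and -1.50 against STAT3ko. In CD4 cells they were -0.89 and -0.37 against WT and -1.40 and -0.99 against STAT3ko. The differences from WT and from STAT3ko share the STAT3ko PD-1ko libraries. Between STAT3ko and WT the same-number differences of Fasl were 0.51 and 0.62 in CD4 cells and -0.06 and 0.19 in CD8 cells.

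**Figure D2:**
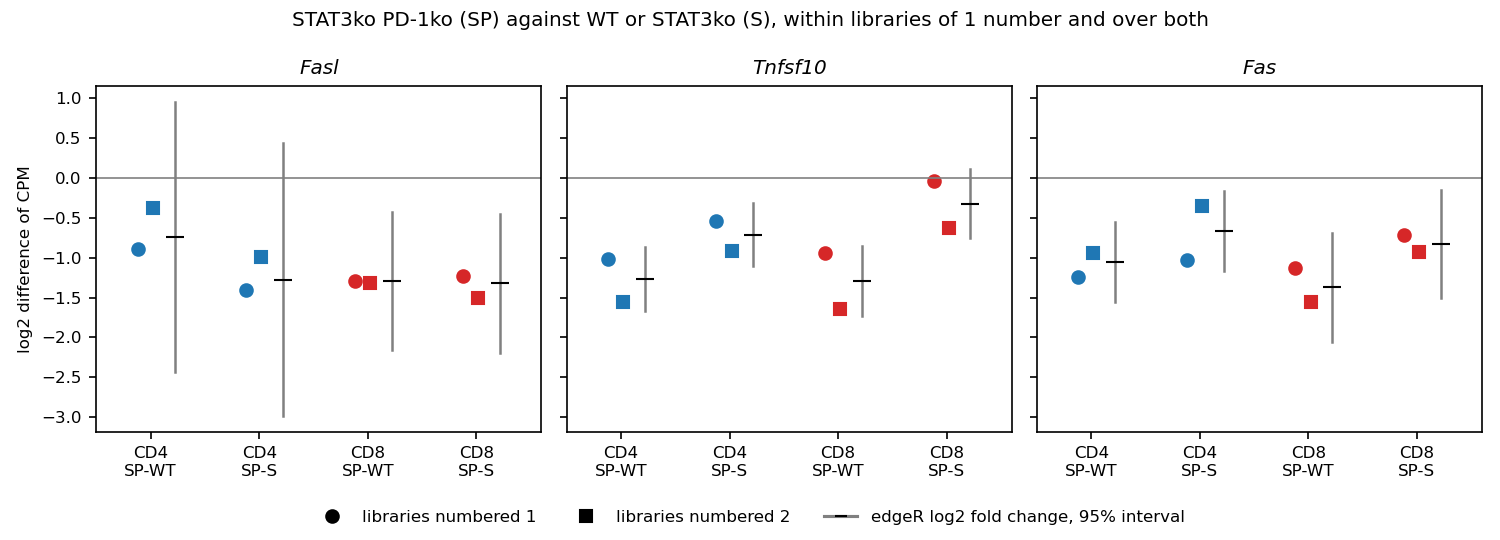
Log2 differences of CPM (vertical axis) of Fasl, Tnfsf10 and Fas between STAT3ko PD-1ko and WT or STAT3ko, within libraries numbered 1 (circles) and 2 (squares), beside the edgeR log2 fold change with its 95% interval (grey). All points lie below 0. The Fasl intervals in CD4 reach from -2.43 to 0.96 and from -2.99 to 0.44, far beyond their points.

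Fas, at chr19:34290659-34327770 on the plus strand, encodes the death receptor of Fas ligand. It holds Mir3084-1, Mir3084-2 and Snora19 on the opposite strand, each listed with 0 counts in all libraries. Its level in CD4 cells was 19.2 and 20.2 CPM in WT, 16.5 and 13.5 CPM in STAT3ko, and 8.09 and 10.6 CPM in STAT3ko PD-1ko. In CD8 cells it was 15.6 and 25.3 CPM in WT, 11.7 and 16.3 CPM in STAT3ko, and 7.11 and 8.57 CPM in STAT3ko PD-1ko. The STAT3ko PD-1ko libraries were the lowest 2 of each subset, and only in CD8 cells did WT and STAT3ko overlap.

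The log2 fold change of Fas for STAT3ko PD-1ko against WT was -1.05 (SE 0.22, adjusted p = 0.0222 by edgeR) in CD4 and -1.37 (SE 0.29, adjusted p = 0.0215 by edgeR) in CD8 cells. These calls needed nearly every library. In CD4 cells the call was lost without WT library 1 or 2, at log2 fold changes of -1.10 and -1.02. It was also lost without STAT3ko PD-1ko library 1 or 2, at -0.87 and -1.27. In CD8 cells the call was lost without WT library 2, which had the highest Fas level of all, at a log2 fold change of -0.99. It was also lost without STAT3ko PD-1ko library 1 or 2, at -1.25 and -1.52. Against STAT3ko the change was -0.66 (SE 0.22, adjusted p = 0.0915 by edgeR) in CD4 and -0.82 (SE 0.29, adjusted p = 0.0911 by edgeR) in CD8 cells. DESeq2 called both (adjusted p = 0.0454 and 0.0377), edgeR called the CD8 difference with genes of at least 1 count kept (0.0379), and so it did without CD8 WT library 1 (0.0490). With the replicate number as a block both were called (adjusted p by edgeR of 0.0438 in CD4 and 0.0207 in CD8 cells). STAT3ko against WT gave -0.39 (SE 0.21, adjusted p = 0.611 by edgeR) in CD4 and -0.55 (SE 0.28, adjusted p = 0.550 by edgeR) in CD8 cells.

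Tnfrsf10b, at chr14:69767472-69784411 on the plus strand, was the least abundant member, with 35 to 120 counts a library. In CD4 cells it stood at 2.36 and 3.09 CPM in WT, 2.21 and 1.56 CPM in STAT3ko, and 3.68 and 4.76 CPM in STAT3ko PD-1ko. Among CD8 libraries the values were 2.58 and 2.16 CPM, 2.76 and 1.47 CPM, and 3.84 and 4.86 CPM. It was thus the member whose STAT3ko PD-1ko libraries lay above all other libraries of their subset, the opposite order to Fas and Tnfsf10. Against STAT3ko the log2 fold change was 1.18 (SE 0.32, adjusted p = 0.0569 by edgeR) in CD4 and 1.06 (SE 0.35, adjusted p = 0.0800 by edgeR) in CD8 cells. Against WT it was 0.65 (adjusted p = 0.221 by edgeR) and 0.89 (adjusted p = 0.122 by edgeR). None of these was called, but the CD4 difference from STAT3ko was called by DESeq2 (0.0350), with all 12 libraries fitted together (0.0391), with genes of at least 1 count kept (0.0364), by limma on log2(RPKM + 1) (0.0418) and with the replicate number as a block (0.0262).

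The complex below the receptors varied less. Fadd, the adaptor (chr7:144578323-144582441, minus strand), ranged from 12.7 to 23.9 CPM, with 18.1 and 15.5 CPM in CD4 WT, 20.6 and 21.6 CPM in CD4 STAT3ko, and 21 and 12.7 CPM in CD4 STAT3ko PD-1ko. In CD8 cells it was at 22 and 15.2 CPM, 23.9 and 21.5 CPM, and 20.9 and 16.3 CPM. For STAT3ko PD-1ko against WT, the log2 fold change was 0.03 (95% interval -0.56 to 0.61) in CD4 and 0.01 (95% interval -0.50 to 0.51) in CD8 cells. Changes beyond these bounds are outside the intervals, but smaller ones could not be seen with 2 libraries a group.

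Casp8 and Cflar lie next to each other on the plus strand of chromosome 1, Cflar at chr1:58711491-58758882 and Casp8 at chr1:58795374-58847503, with 36491 bases between them. Casp8 was at 145 and 155 CPM in CD4 WT, 148 and 176 CPM in CD4 STAT3ko, and 134 and 110 CPM in CD4 STAT3ko PD-1ko. Its CD8 levels were 116 and 148 CPM, 133 and 169 CPM, and 119 and 96.8 CPM. Its log2 fold change for STAT3ko PD-1ko was -0.27 (SE 0.17) in CD4 and -0.28 (SE 0.18) in CD8 cells against WT, and -0.40 (SE 0.17) and -0.48 (SE 0.19) against STAT3ko, with adjusted p-values by edgeR of 0.328, 0.326, 0.162 and 0.117.

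Cflar was at 144 and 168 CPM in CD4 WT, 130 and 167 CPM in CD4 STAT3ko, and 120 and 95.4 CPM in CD4 STAT3ko PD-1ko. In CD8 cells it was at 108 and 128 CPM, 112 and 133 CPM, and 97.5 and 72.1 CPM. In each subset both STAT3ko PD-1ko libraries lay below the 4 others. Its log2 fold change was -0.52 (SE 0.19) in CD4 and -0.47 (SE 0.18) in CD8 cells against WT, and -0.45 (SE 0.19) and -0.52 (SE 0.18) against STAT3ko. None was called by edgeR (adjusted p = 0.127, 0.118, 0.173 and 0.0877). DESeq2 called the difference from STAT3ko in CD8 cells (0.0364), and edgeR did with genes of at least 1 count kept (0.0492). Across the 12 libraries the log2 CPM of Casp8 and Cflar had a Pearson correlation of 0.93, the highest among the 7 members. The libraries share group, replicate number and depth, so this describes them and is no test.

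**Figure D3:**
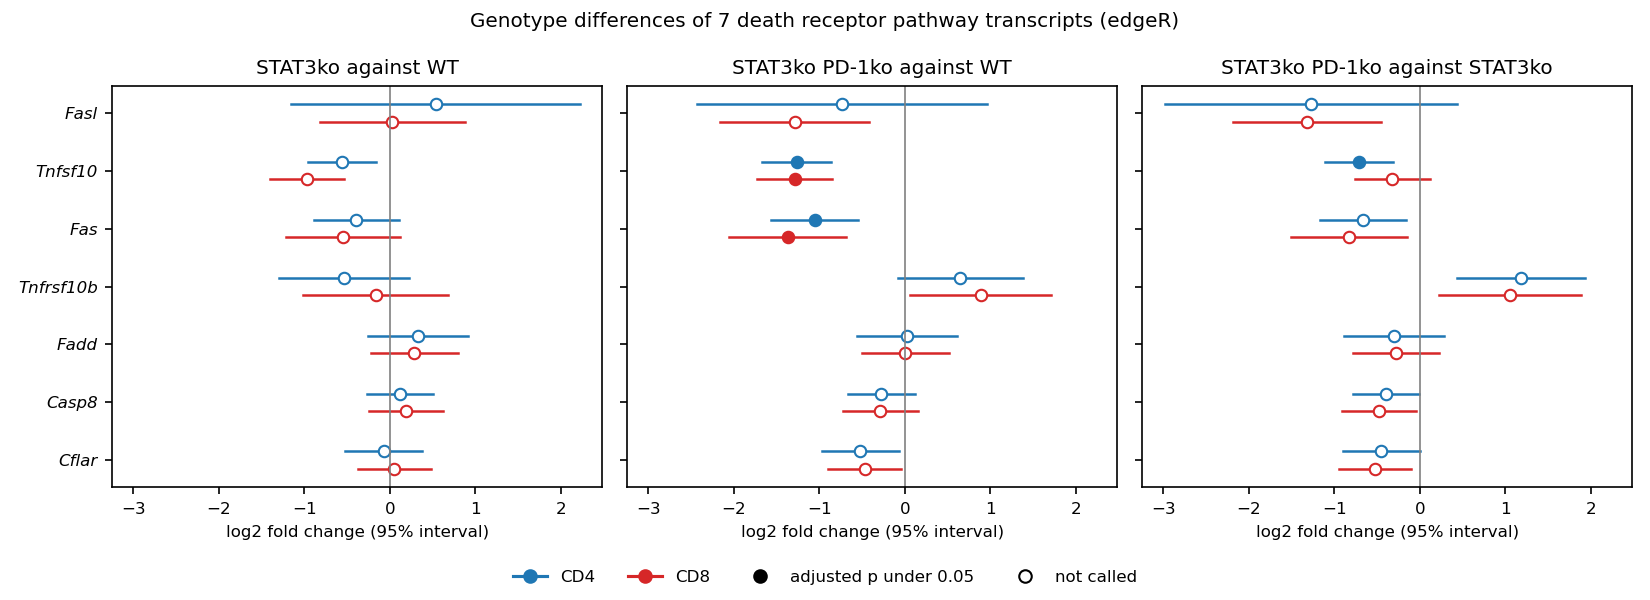
Log2 fold change with 95% interval (horizontal axis) of each member in the 3 genotype comparisons, for CD4 (blue) and CD8 (red) cells. Filled points passed the adjusted threshold. Tnfsf10 and Fas pass against WT in both subsets, Tnfsf10 passes against STAT3ko in CD4, and none passes for STAT3ko against WT.

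Counted over the members, the median log2 fold change for STAT3ko PD-1ko against WT was -0.52 in CD4 and -0.47 in CD8 cells, beside -0.01 and -0.00062 over all genes tested. Against STAT3ko the medians were -0.45 and -0.48, beside -0.01 and -0.0028. For STAT3ko against WT they were -0.07 and 0.03, beside 0.01 and -0.01. Groups that did not overlap were common throughout, at 5 of 7 members against WT in each subset (59.2% of all genes in CD4 and 59.7% in CD8 cells). Against STAT3ko they were 5 of 7 in CD4 (59.2%) and 7 of 7 in CD8 cells (63.1%), and for STAT3ko against WT 4 of 7 (38.2%) and 1 of 7 (43.6%). The comparisons with WT and with STAT3ko share the STAT3ko PD-1ko libraries. The counts of calls leaned on single libraries. In CD4 cells 0 members were called against WT without STAT3ko PD-1ko library 1 or without library 2, and 1 was called without WT library 1 or without WT library 2, while the genes called over the whole table fell from 1538 to 147 and 62 without STAT3ko PD-1ko library 1 or 2 and to 676 and 575 without WT library 1 or 2. In CD8 cells 1 member was called without STAT3ko PD-1ko library 1 and 0 without library 2, 2 members without WT library 1 or 2, and the genes called fell from 2066 to 835 and 111, and to 1107 and 674 without WT library 1 or 2. The lone STAT3ko PD-1ko library left in such a fit is assumed to vary like the other groups.

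Between the subsets, the TRAIL transcript was the only member called in the fit by group, which leaves out the pairing of the pools. Tnfsf10 was lower in CD8 than in CD4 cells in each genotype, by 1.94-fold in WT, 2.57-fold in STAT3ko and 1.95-fold in STAT3ko PD-1ko. The log2 differences were -0.95 (SE 0.18, adjusted p = 0.00759 by edgeR), -1.36 (SE 0.18, adjusted p = 0.00142 by edgeR) and -0.97 (SE 0.18, adjusted p = 0.0157 by edgeR). In each genotype 1 of 7 members was called, where 10.5%, 9.62% and 4.14% of all genes were (lower in CD8, 5.59%, 4.82% and 2.5%). The STAT3ko call held without any single library. The WT call was lost without CD4 WT library 2 (log2 difference -0.81) or CD8 WT library 1 (-0.79). The STAT3ko PD-1ko call was lost without any of the 4 libraries compared (log2 differences from -1.14 to -0.80). Cflar was lower in CD8 cells by a log2 difference of -0.41 in WT, -0.27 in STAT3ko and -0.34 in STAT3ko PD-1ko (edgeR adjusted p = 0.270, 0.485 and 0.497). CD4 and CD8 libraries of the same number came from the same livers, and with a block for that pool of recipients Cflar was called in all 3 genotypes (adjusted p = 0.00689, 0.0401 and 0.0229). The block also raised the number of genes called over the whole table from 1294 to 2991, from 1187 to 3077 and from 511 to 1774.

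The other 5 members showed no called difference between subsets, with log2 differences from -0.25 to 0.47 and adjusted p-values of 0.654 or more by edgeR, so the CPM of Fasl was not shown to differ between CD8 and CD4 cells. The 95% interval of that difference in WT, from -1.07 to 2.02 on the log2 scale, was wide, and libraries 1 and 2 of this gene lay far apart in every group. No member had a genotype effect that differed between CD8 and CD4 cells in any of the 3 interaction contrasts by edgeR, DESeq2 or limma, and 0 had an unadjusted p under 0.05 (1.85%, 4.43% and 3.59% of all genes did). Over the whole table these contrasts called 0, 1 and 0 genes (0%, 0.00811% and 0% of those tested).

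Beyond the 7 members, a list of 47 other genes of the pathway was read in the same fits, of which 43 passed the filter (Tnfsf12, Tnfsf15, Tnfrsf11b and Fcmr did not). For STAT3ko against WT none was called in either subset by edgeR, while 6 of 43 in CD4 and 1 of 43 in CD8 cells had an unadjusted p under 0.05, beside 10.5% and 11% of all genes. For STAT3ko PD-1ko against WT, 3 rose and 6 fell in CD4 cells, and 2 rose and 8 fell in CD8 cells. Against STAT3ko, 1 rose and 4 fell in CD4 cells, and 3 rose and 6 fell in CD8 cells. These are 9 and 10 of 43 against WT and 5 and 9 of 43 against STAT3ko, to be read against the 12.9%, 17.2%, 11.1% and 16.8% of all genes called.

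Among the receptors, the largest fall was that of Tnfrsf25 (death receptor 3, which binds TL1A and costimulates T cells). In CD4 cells its level was 33.1 and 45.2 CPM in WT, 26 and 28.3 CPM in STAT3ko, and 3.16 and 6.47 CPM in STAT3ko PD-1ko. The CD8 libraries held 4.36 and 5.23 CPM, 1.73 and 2.78 CPM, and 0.49 and 0.41 CPM, where the last pair rested on 11 and 10 counts. The log2 fold change against WT was -2.99 (SE 0.35, adjusted p = 0.00446 by edgeR) in CD4 and -3.40 (SE 0.38, adjusted p = 0.00440 by edgeR) in CD8 cells. Against STAT3ko it was -2.47 (SE 0.34) and -2.31 (SE 0.39), both called. The CD8 call against WT was lost without STAT3ko PD-1ko library 2. The CD8 difference from WT was -3.16 between the libraries numbered 1 and -3.68 between those numbered 2. The log2(RPKM + 1) scale reduced this change to -1.51.

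Tnfrsf26, a receptor of the TRAIL decoy cluster, fell by 1.66 against WT in CD4 and by 1.55 in CD8 cells on the log2 scale, and by 0.82 and 1.15 against STAT3ko. In CD4 cells it was at 70.1 and 49.9 CPM in WT and at 17.0 and 20.4 CPM in STAT3ko PD-1ko. Tnfrsf23, its neighbour in that cluster, fell by 1.95 against WT in CD4 cells, from 52 and 41 counts to 13 and 12. Of the other ligands, Ltb, which encodes lymphotoxin beta, fell by 0.65 against WT and by 0.65 against STAT3ko in CD4 cells. In CD8 cells its changes were -0.22 and -0.42, which were not called (adjusted p = 0.241 and 0.0518 by edgeR).

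Of the regulators of the receptor complexes, Pea15a fell in all 4 comparisons. It encodes a death effector domain protein that can bind FADD and caspase-8. Its level in CD4 cells was 134 and 115 CPM in WT, 108 and 104 CPM in STAT3ko, and 58.0 and 59.0 CPM in STAT3ko PD-1ko. In CD8 cells it was 95.9 and 92.4 CPM, 84.7 and 90.9 CPM, and 42.9 and 44.6 CPM. Against WT the log2 fold change was -1.07 (SE 0.14, adjusted p = 0.00643 by edgeR) in CD4 and -1.10 (SE 0.11, adjusted p = 0.00372 by edgeR) in CD8 cells. Ptpn13, a phosphatase that binds the tail of human Fas, fell in CD8 cells by 0.70 against WT and by 0.82 against STAT3ko. In CD4 cells its changes were -0.72 (adjusted p = 0.0501 by edgeR) and -0.53 (adjusted p = 0.119 by edgeR), which were not called. Mlkl, the pore-forming effector of necroptosis, rose by 1.09 (SE 0.20, adjusted p = 0.0165 by edgeR) against WT in CD4 cells, from 11.7 and 9.78 CPM to 25.5 and 19.7 CPM. In CD8 cells its change was 0.63 (adjusted p = 0.0564 by edgeR), which was not called.

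Of 13 genes of the execution arm, 2 rose and 0 fell in CD4 and 2 rose and 1 fell in CD8 cells against WT, and 1 and 3 rose and 0 fell against STAT3ko, beside the 12.9%, 17.2%, 11.1% and 16.8% of all genes called. The log2 fold change was above 0 in 5, 5, 6 and 5 of the 13 genes in these comparisons, with medians of -0.09, -0.05, -0.07 and -0.02. The gene that fell was Casp6, an effector caspase (-0.65, adjusted p = 0.0247 by edgeR), named after its value was seen. Bid, which links caspase-8 to the mitochondrial pathway, rose by 0.78 (SE 0.16, adjusted p = 0.0222 by edgeR) against WT in CD4 cells. Parp1, a DNA repair enzyme that is cleaved during apoptosis, rose in all 4 comparisons, by 0.66 and 0.88 against WT and by 0.55 and 0.67 against STAT3ko in CD4 and CD8 cells. Htra2, a mitochondrial serine protease, rose in CD8 cells by 0.64 against WT and by 0.52 against STAT3ko. The calls of Parp1 and Htra2 against STAT3ko were lost under some settings (adjusted p up to 0.0631 for Parp1 in CD4 and up to 0.0703 for Htra2 in CD8 cells). Among the calls named here for STAT3ko PD-1ko, those of Tnfrsf25 against WT in CD4 and of Pea15a against WT in CD8 cells held whichever library was left out, and each of the others was lost without at least 1 library.

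**Figure D4:**
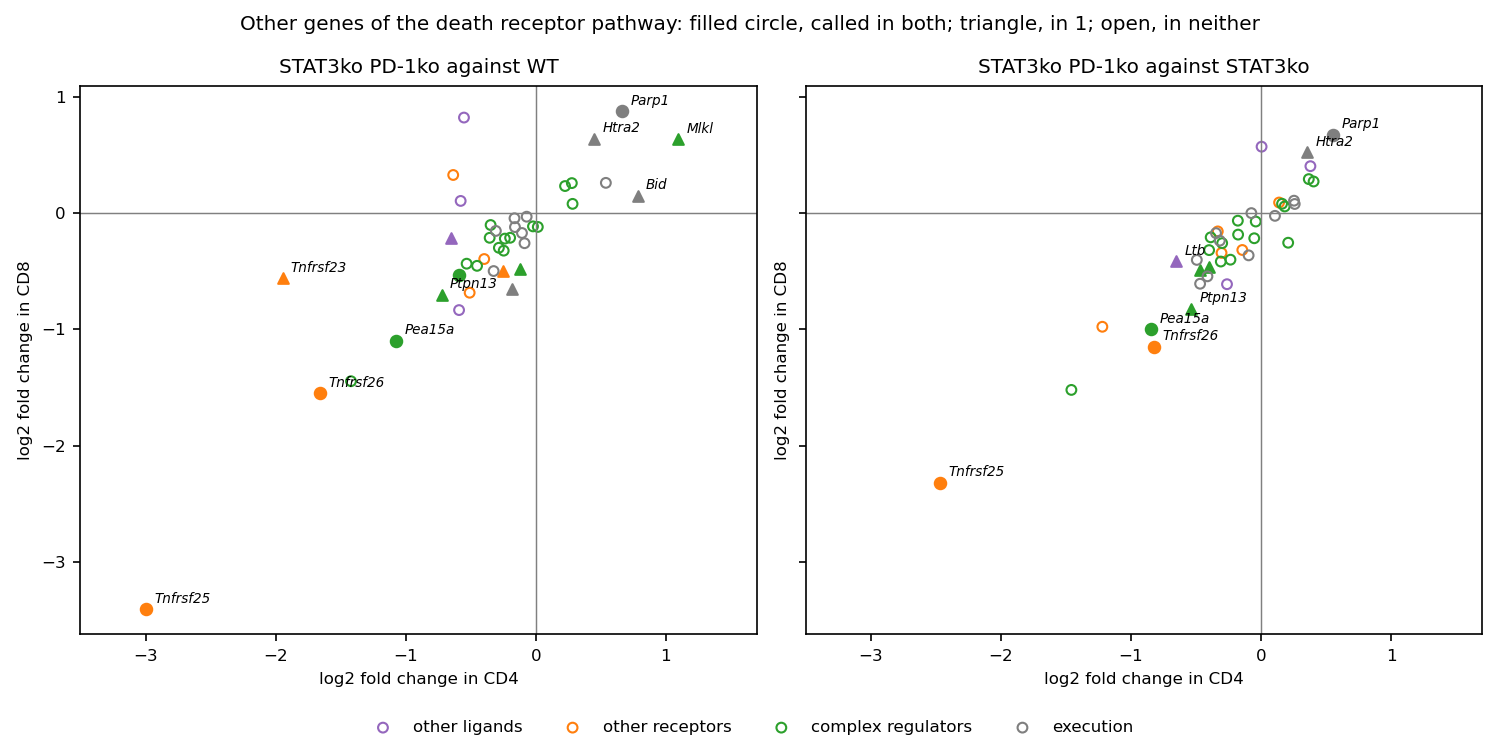
Log2 fold change in CD4 (horizontal axis) against CD8 cells (vertical axis) of 42 of the 43 other pathway genes tested, for STAT3ko PD-1ko against WT (left) and against STAT3ko (right), coloured by role. Filled circles were called in both subsets (5 genes on the left, 4 on the right), triangles in 1. Tnfrsf25 lies lowest in both panels.

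Between the subsets, the wider list gave 2 higher and 7 lower in CD8 than in CD4 cells of WT, 1 and 3 in STAT3ko and 0 and 2 in STAT3ko PD-1ko. These are 9, 4 and 2 of 43, where 10.5%, 9.62% and 4.14% of all genes were called, so the shares in STAT3ko and STAT3ko PD-1ko lay near those of all genes. Tnfrsf25 was lower in CD8 cells of every genotype, with log2 differences of -3.03, -3.58 and -3.42 (edgeR adjusted p = 0.000343, 0.000201 and 0.00156). In WT the cytokine genes Lta (-1.78) and Tnf (-1.61), the decoy receptor gene Tnfrsf22 (-1.15), Tnfrsf26 (-0.96) and Pea15a (-0.41) were lower in CD8 cells too, and Bid (0.94) and Ripk3, a kinase of the necroptosis pathway (0.52), were higher. Ripk3 was also higher in CD8 cells of STAT3ko (0.64). Ptpn13 was also lower in CD8 cells of every genotype, with log2 differences of -1.01 in WT, -0.69 in STAT3ko and -0.98 in STAT3ko PD-1ko (edgeR adjusted p = 0.00262, 0.0196 and 0.00687). Cyld, a deubiquitinase, was lower in CD8 cells of STAT3ko (-0.40), a call that was lost whichever library was left out and with genes of at least 1 count kept.

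Markers of other cell types and of the T cells themselves moved with genotype and are given beside these results. The sum of 10 T cell markers was 5157 and 5063 CPM in CD8 STAT3ko PD-1ko against 7256 and 6760 CPM in CD8 WT. The coreceptor genes were lower too. In CD8 STAT3ko PD-1ko against CD8 WT, Cd8a was at 595 and 589 against 1190.5 and 1339 CPM. Cd8b1 was at 554 and 584 against 1032 and 1056 CPM. In CD4 STAT3ko PD-1ko against CD4 WT, Cd4 was at 1323 and 1241 against 1843 and 1880 CPM. Of 6 dendritic cell markers, Itgax was the most abundant. It encodes the integrin CD11c, which activated T cells also express, and it stood at 392 and 363 CPM in CD8 WT, 220 and 243 CPM in CD8 STAT3ko, and 27.8 and 20.2 CPM in CD8 STAT3ko PD-1ko. In CD4 cells it was at 70.5 and 62.2, 25.9 and 27.7, and 4.98 and 5.72 CPM. The sum of all 6 (392 and 363 CPM in CD8 WT) was nearly that of Itgax alone, and 2 to 4 of the 6 were at 0 in each library. The sum of 12 macrophage markers, led by Cd68, ranged from 7.49 to 39.3 CPM and was highest in CD8 WT library 2, which also had the highest level of Fas. In CD8 cells it was 30.2 and 39.3 CPM in WT against 17.9 and 19.6 CPM in STAT3ko PD-1ko. In CD4 cells it was 9.50 and 19.4 CPM in WT against 9.78 and 11.8 CPM in STAT3ko PD-1ko. The sum of 5 NK cell markers, led by Klrb1c, ranged from 11 to 61.5 CPM, with its lowest value in CD4 STAT3ko PD-1ko library 2 and 55.6 and 61.5 CPM in CD8 WT against 25.1 and 12.5 CPM in CD8 STAT3ko PD-1ko. The sums of 7 B cell, 7 neutrophil and 6 erythroid markers reached at most 14.9, 1.23 and 0.562 CPM, and that of 7 endothelial markers, led by Pecam1, lay between 111 and 198 CPM. The part of these in the levels of Fas, Fasl and Tnfsf10 was not tested.

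The genes whose log2 CPM followed each member most closely over the 12 libraries, among 8605 or 8606 candidates averaging 3 or more in log2 CPM, are given as a description. For Tnfsf10 they were Calcrl (Pearson r = 0.98), Pfkfb3 (0.98) and Satb1 (0.97). For Fasl they were Rngtt (0.98), Slc10a7 (0.97) and Ptbp3 (0.97). For Fas they were a row whose symbol had been turned into a date in the deposited table (0.97), Nmb (0.97) and Rnf166 (0.96). Casp8 had Zbtb24 (0.98) and Taz (0.97) among its closest. Cflar was closest to Esrra (0.98), Fbxl20 and Rnf169, Fadd to Ogdh (0.94), Rwdd2b and Bcl2l13, and Tnfrsf10b to Rpap3 (0.95), Noc4l and Nop16. Fasl and Tnfsf10, the pair of ligands, had a correlation of 0.13 with each other, and Tnfrsf10b ran against Casp8 (-0.87). All these points share the groups, the depth and the replicate numbers of 12 libraries.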

How the data were processed

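Donor T cells sorted from liver were sequenced with a stranded mRNA kit and single-end reads. Per the study's methods, the authors aligned reads with STAR to mm10 and deposited whole-number read counts per RefSeq gene from HTSeq-count (the strand setting is not given in the sources used here) and RPKM values scaled per exon length and library. The count table was used for all tests. RPKM served for levels between genes and in limma as an alternative. The deposited labels also carry protocols of another experiment, which were not used. Counts were tested with edgeR 4.0.16 in R 4.3.3 (TMM, filterByExpr with a minimum count of 10 and a minimum total of 15, quasi-likelihood test, Benjamini-Hochberg over the 11959 CD4 or 12002 CD8 genes kept). The 6 libraries of a subset entered 1 fit by group, and all 12 entered the fit of CD8 against CD4 and of interactions (12334 genes). Standard errors came from the log2 fold change and its F statistic, and intervals are 95% intervals. Replicates are pools of recipients with 2 libraries a group. In the fit by group, p-values therefore measure the spread between such pools together with any difference between the 2 replicate numbers. The exact permutation test of 2 against 2 libraries cannot go below 0.333. CD4 and CD8 libraries of a pool deviated together (correlations of 0.64, 0.64 and 0.79 in WT, STAT3ko and STAT3ko PD-1ko), and the study took both subsets from the same livers, so the block for the pool is given beside the subset comparison. Between genotypes, libraries of the same number deviated together with correlations of 0.76, 0.37 and 0.22 in CD4 and 0.77, 0.19 and 0.04 in CD8 cells, the lowest between STAT3ko and STAT3ko PD-1ko. The fit by group was set as the main design and kept, and the fit with the number as a block stands beside the results it changed. Scripts were tested on simulated data. Alternatives were DESeq2 1.42.0, RLE scaling, other filters, other sets of libraries, replicate blocks, limma 3.58.1 on log2(RPKM + 1) and log2(RPKM + 0.1), and leaving out each library. Motifs were searched in the 250 bases before the start. The text names all 7 members, the targeted genes Stat3 and Pdcd1, for each comparison up to 4 called risers and 4 called fallers of the wider list, and for each member the 3 most correlated genes. Of the genes this rule names, 2 are not reported here. The members, lists and motifs were chosen with earlier results of these data known.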

Additional observations from a re-analysis of the deposited data

How the results depend on the processing

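Over 10 alternative settings that kept all libraries of their comparison or fitted only those compared, 912 of 1005 values kept their direction and side of the threshold (counts, within 1.5 times), 13 lost a call, 32 gained one, 4 reversed and 44 counts moved. The calls of Fas and Tnfsf10 for STAT3ko PD-1ko against WT held in 9 of 9 settings in both subsets. The reversals were all of Fadd in CD8 STAT3ko PD-1ko against WT, near 0 throughout: -0.0022 by DESeq2 and by RLE scaling, -0.0029 with all 12 libraries and -0.0079 with genes of at least 1 count. Why counts moved was not tested, except that fewer libraries or genes enter some fits. For STAT3ko against WT the genes called in CD4 cells (40) were 271 by DESeq2, 164 with all 12 libraries, 165 with genes of at least 1 count and 1 with only the 4 libraries compared. In CD8 cells (7) they were 210 by DESeq2, 20 with all 12 libraries, 66 with genes of at least 1 count, 1 with at least 10 counts in every library, 3 and 1 by limma on log2(RPKM + 1) and log2(RPKM + 0.1), and 0 with only the 4 libraries. For STAT3ko PD-1ko in CD4 cells, DESeq2 called 2098 genes against STAT3ko (1324), and all 12 libraries gave 2299 against STAT3ko and 2462 against WT (1538). In the interactions, DESeq2 called 5 genes for STAT3ko against WT, 76 for STAT3ko PD-1ko against WT and 19 against STAT3ko. Limma called 8, 46 and 6, and genes of at least 1 count gave 50 and 9 for the last pair. Members called against STAT3ko in CD4 cells (1) were 3 by DESeq2, 2 with all 12 libraries or genes of at least 1 count, and 0 by limma on log2(RPKM + 0.1). In CD8 cells (0) they were 2, 3 with genes of at least 1 count, and 1 with only the 4 libraries. For STAT3ko against WT in CD8 cells, DESeq2 and genes of at least 1 count gave 1.

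The block for the pool of recipients gave 2991, 3077 and 1774 genes and 2 members in WT, STAT3ko and STAT3ko PD-1ko for CD8 against CD4, and 84 and 22 interaction genes for STAT3ko PD-1ko against WT and STAT3ko. With a replicate block, 303 genes were called for STAT3ko against WT, 3104 for STAT3ko PD-1ko against WT and 3105 against STAT3ko in CD4 cells, and members called against STAT3ko rose to 4 in CD4 and 2 in CD8 cells. The replicate block changed no call of a member or of a gene named by rule, in the genotype comparison it was named for, beyond those given with Stat3, Fasl, Fas and Tnfrsf10b.

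Leaving out each library in turn gave log2 fold changes for STAT3ko against WT from -0.018 to 0.25 for Casp8, from -0.28 to 0.11 for Cflar and from -0.57 to 1.73 for Fasl in CD4 cells, and from -0.077 to 0.19 for Cflar, from -0.33 to 0.51 for Fasl and from -0.68 to 0.22 for Tnfrsf10b in CD8 cells. For STAT3ko PD-1ko, Fadd ranged from -0.36 to 0.33 against WT and from -0.70 to 0.00045 against STAT3ko in CD4 and from -0.25 to 0.29 against WT in CD8 cells, and Fasl from -1.54 to 0.45 against WT in CD4 cells. Genes called ranged from 1 to 49 for STAT3ko against WT, 62 to 1947 for STAT3ko PD-1ko against WT and 0 to 1212 against STAT3ko in CD4 cells. In CD8 cells the ranges were 0 to 2, 111 to 1908 and 2 to 1878. For CD8 against CD4 they were 611 to 1320 in WT, 428 to 1135 in STAT3ko and 163 to 505 in STAT3ko PD-1ko, and 1 to 9 for the interaction of STAT3ko PD-1ko with WT. Members called ranged from 0 to 2 in CD4 and 0 to 3 in CD8 cells against WT, 0 to 1 and 0 to 2 against STAT3ko, and 0 to 1 for CD8 against CD4 in WT and STAT3ko PD-1ko. Depth limits mainly Tnfrsf10b, at 35 to 120 counts.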
